A study of Mus musculus with 8 samples.

Results

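The GADD45 genes and the p53-p21 axis are 9 genes of growth arrest and stress signalling that were taken by symbol from a table of 17613 genes measured in mouse brain. They are Gadd45a, Gadd45b, Gadd45g, Cdkn1a, Cdkn1b, Trp53, Mdm2, Mdm4 and Ccng1, and all 9 were found once each and passed the filter on low counts. Polyadenylated RNA from brains of C57BL/6 mice was sequenced in 4 libraries labelled Uhrf2 KO and 4 labelled wild type (WT). Uhrf2 codes for a nuclear reader of modified cytosine, and the title of the series links it to local 5-methylcytosine and to seizures. The labels give no age, sex, brain region or kind of Uhrf2 allele, and do not say whether each library is a separate animal, so p-values measure the spread between libraries only. In bulk brain tissue, a change in the number of cells of a type and a change in RNA per cell cannot be told apart.

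GADD45 proteins are small stress-induced proteins that bind the kinase MAP3K4, cyclin-dependent kinase 1 and PCNA, and GADD45A and GADD45B have been tied to active DNA demethylation; in neurons Gadd45b is induced by activity. p53, encoded by Trp53, is a transcription factor held low by the ubiquitin ligase MDM2 and its partner MDM4, and after DNA damage it induces Cdkn1a (the kinase inhibitor p21), Mdm2, Gadd45a and Ccng1. Cdkn1b encodes p27, the related inhibitor, which is controlled largely through its breakdown.

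Library totals ran from 11891350 to 19773921 counts. Uhrf2 itself, the targeted gene, averaged 88.8 ± 2.23 CPM (the count relative to the TMM-scaled library size) in the libraries labelled KO and 55.4 ± 5.22 CPM in those labelled WT (SD, n = 4 each), higher where a knockout is labelled. Which part of the gene the reads cover was not analysed here, so every direction below rests on the labels. The libraries numbered 1 of both groups stood apart from the other 6 on the second principal component, which held 19.8% of the variance. They stood at 13.1 for KO and 21 for WT, against -9 to -2.5 for the others. Values without both are given for Gadd45b and Cdkn1a, which also passed without them.

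The starts of the 2 genes that rose are shown first, from RefSeq on GRCm38.p6, each running from 250 bases before an annotated start to 50 bases after it, on the plus strand. Gadd45b has 1 such window and Cdkn1a has 2. In the first and the third, capitals mark CpG, the dinucleotide that carries 5-methylcytosine; in the second, capitals mark matches to the 10-base p53 half-site.
Gadd45b, chr10:80929841-80930140: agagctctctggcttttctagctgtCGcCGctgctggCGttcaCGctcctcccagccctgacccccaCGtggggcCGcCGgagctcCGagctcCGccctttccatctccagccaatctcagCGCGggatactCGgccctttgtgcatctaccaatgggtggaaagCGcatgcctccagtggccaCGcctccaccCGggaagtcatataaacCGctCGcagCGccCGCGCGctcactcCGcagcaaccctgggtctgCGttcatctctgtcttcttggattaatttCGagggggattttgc
Cdkn1a upstream start, chr17:29090729-29091028: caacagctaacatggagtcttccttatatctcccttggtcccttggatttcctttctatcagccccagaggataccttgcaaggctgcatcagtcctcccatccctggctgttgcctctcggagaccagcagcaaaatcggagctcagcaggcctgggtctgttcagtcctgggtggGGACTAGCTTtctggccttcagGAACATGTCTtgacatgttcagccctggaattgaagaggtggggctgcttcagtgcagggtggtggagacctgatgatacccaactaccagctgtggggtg
Cdkn1a downstream start, chr17:29093519-29093818: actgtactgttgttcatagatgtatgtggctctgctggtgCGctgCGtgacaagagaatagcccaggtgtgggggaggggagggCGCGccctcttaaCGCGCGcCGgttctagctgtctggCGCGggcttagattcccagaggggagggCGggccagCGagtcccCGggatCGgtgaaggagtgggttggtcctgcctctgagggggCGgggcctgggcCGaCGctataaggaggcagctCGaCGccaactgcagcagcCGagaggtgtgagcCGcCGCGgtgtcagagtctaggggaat

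The Gadd45b window holds 24 CpG (percentile 80.0) and the downstream Cdkn1a window 23 (percentile 78.5) among the 32851 promoter windows searched, whose median is 7. The upstream Cdkn1a window holds 2 CpG and 2 p53 half-sites, GGACTAGCTT and GAACATGTCT, which begin 73 and 51 bases before the start. A p53 half-site was found on either strand in 8.36% of all windows. Only full matches inside the windows were counted, so near matches and sites elsewhere in a gene are not covered. Among the other members, the windows of Gadd45a, Mdm2, Ccng1 and Trp53 hold 1 each, and those of Gadd45b, Gadd45g, Cdkn1b and Mdm4 hold none. The cyclic AMP response element TGACGTCA (1.79% of windows) and the EGR motif GCGTGGGCG (0.612%) were in no member's window on either strand. The AP-1 motif TGANTCA (7.81%) was in 1 Mdm4 window, and the SP1 motif GGGCGG (35.7%) was in windows of Gadd45a, Gadd45b, Cdkn1a (downstream), Cdkn1b and Mdm2. The counts do not show which Cdkn1a start was used.

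Of the 9 members, Gadd45b and Cdkn1a were higher in the libraries labelled KO, none was lower, and 7 did not pass an adjusted p of 0.05 over all tested genes. That is 22.2% of the members, beside 1.14% of the 15902 tested genes that were higher and 1.43% that changed in either direction. The groups did not overlap in the same 2 members, beside 7.67% of all tested genes. The median log2 fold change of the members was 0.015, against -0.005 for all tested genes. The members were chosen with these values known, so the counts describe them and are not a test of the set.

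Gadd45b, an activity-induced member of its family, lies on chromosome 10 from 80930073 to 80932204 on GRCm38. It stood at 18.3, 20.4, 15.5 and 13.9 CPM in KO replicates 1 to 4, against 7.23, 10.5, 8.24 and 9.97 CPM in WT replicates 1 to 4. Every library labelled KO was above every library labelled WT, KO replicate 2 was the highest and WT replicate 1 the lowest. The mean was 17.0 ± 2.89 CPM in libraries labelled KO and 8.98 ± 1.51 CPM in those labelled WT (SD, n = 4 each), 1.88-fold higher. The log2 fold change was 0.91 (SE 0.13, 95% interval 0.59 to 1.23, edgeR adjusted p = 0.00161), which placed the gene at rank 48 by p. It passed in all 8 fits without 1 library, at adjusted p from 0.000677 to 0.0109, and without both libraries numbered 1 (log2 fold change 0.81, adjusted p = 0.012).

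Gadd45g, a stress-induced relative, showed the same direction of means with overlapping groups. It had 18.4, 15.9, 15.2 and 11.4 CPM in KO replicates 1 to 4, beside 13.8, 14.6, 11.4 and 11.9 CPM in WT replicates 1 to 4. Only KO replicates 1 to 3 were above all WT libraries, and KO replicate 4 was level with the lowest of them. Its fitted log2 difference was 0.24 (SE 0.12, interval -0.06 to 0.55, adjusted p = 0.451).

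Gadd45a, the founding member and a p53 target, had the lowest counts of the 9, from 61 to 104 per library, where counting alone gives a coefficient of variation of 9.81% to 12.8%. Its level was 4.55, 4.97, 5.18 and 5.21 CPM in KO replicates 1 to 4 and 5.72, 6.19, 4.94 and 6.73 CPM in WT replicates 1 to 4. All but 1 of the WT libraries were above the KO libraries. It fitted at a log2 difference of -0.23 (SE 0.12, interval -0.54 to 0.07, adjusted p = 0.465). On chromosome 6 (67035096 to 67037457, minus strand) 859 bases of the gene overlap E230016M11Rik on the other strand, and whether the counting used strand is not given in the sources used here. That transcript had 5.39 ± 1.15 CPM in KO and 5.71 ± 0.421 CPM in WT libraries (SD, n = 4 each), and with its counts added the log2 fold change of Gadd45a was -0.17 (adjusted p = 0.476).

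The shift of Gadd45b was set against that of its relatives within each library, as the log2 ratio of their counts. Gadd45b over Gadd45a averaged 1.74 ± 0.31 in libraries labelled KO and 0.59 ± 0.19 in those labelled WT, a difference of 1.15. Gadd45b over Gadd45g averaged 0.16 ± 0.18 in KO and -0.53 ± 0.28 in WT libraries (SD, n = 4 each), a difference of 0.69. The groups did not overlap in either ratio, and each gave p = 0.0286 by an exact two-sided permutation test over 70 ways, the smallest it can give (adjusted p = 0.0381 over 4 ratios). The ratios were chosen with the values known and hold a gene already called, so these p-values restate that call and are not independent evidence.

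**Figure D1:**
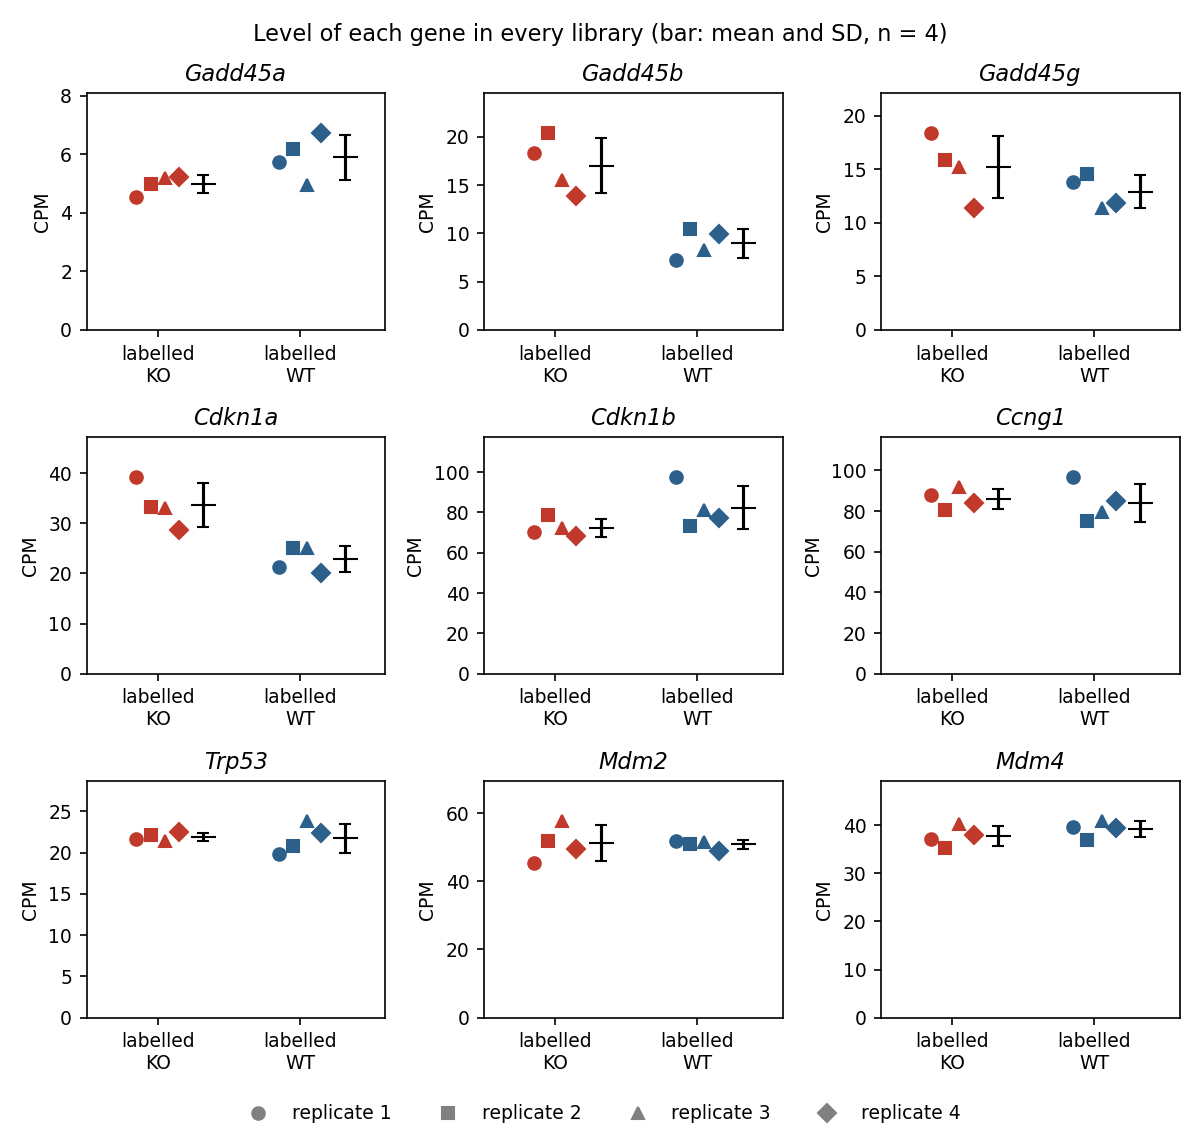
Level of each of the 9 genes in every library, in CPM on a linear axis from 0, with libraries labelled KO on the left and those labelled WT on the right; bars give the mean and SD of 4 libraries. The groups are apart in Gadd45b (13.9 to 20.4 against 7.23 to 10.5 CPM) and in Cdkn1a (28.6 to 39.3 against 20.1 to 25.1 CPM), and overlap in the other 7.

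Cdkn1a, which encodes p21, an inhibitor of cyclin-dependent kinases, lies on chromosome 17 from 29090976 to 29100727. It had 39.3, 33.3, 33.1 and 28.6 CPM in KO replicates 1 to 4, against 21.3, 25, 25.1 and 20.1 CPM in WT replicates 1 to 4. The groups did not overlap, and KO replicate 1 was the highest of all. The mean was 33.6 ± 4.40 CPM in libraries labelled KO and 22.9 ± 2.57 CPM in those labelled WT (SD, n = 4 each), 1.46-fold higher. The log2 fold change was 0.54 (SE 0.09, interval 0.31 to 0.77, edgeR adjusted p = 0.00693), at rank 90 by p. It passed in all 8 fits without 1 library, at adjusted p from 0.00226 to 0.0342, and without both libraries numbered 1 (log2 fold change 0.44, adjusted p = 0.0184).

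Cdkn1b, which encodes p27, had means in the opposite order. It stood at 70.2, 78.5, 72.1 and 68.4 CPM in KO replicates 1 to 4 and 97.7, 73.4, 81.1 and 77.2 CPM in WT replicates 1 to 4. WT replicate 1 was the highest library and KO replicate 2 lay within the WT range. On the log2 scale the difference was -0.18 (SE 0.08, interval -0.37 to 0.01, adjusted p = 0.347, unadjusted p = 0.0347), and it was -0.09 without WT replicate 1. The log2 ratio of Cdkn1a over Cdkn1b was -1.11 ± 0.19 in KO and -1.84 ± 0.28 in WT libraries (SD, n = 4 each), a difference of 0.73 with no overlap (exact permutation p = 0.0286, adjusted p = 0.0381); without WT replicate 1 the difference was 0.61. This ratio too was chosen with the values known, and its p is not independent evidence.

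Trp53 and its regulators showed no change past the threshold, and their intervals were narrow. Trp53, which encodes p53, had 21.7, 22.2, 21.4 and 22.5 CPM in KO replicates 1 to 4, against 19.8, 20.8, 23.9 and 22.4 CPM in WT replicates 1 to 4. All 4 KO values lay inside the WT range. On the log2 scale Trp53 differed by 0.01 (SE 0.07, interval -0.16 to 0.18, adjusted p = 0.988), and its sign turned in 6 of 18 alternatives. The transcript of Trp53 matches that of Trp53-ps, a processed pseudogene, at 94.862% over 1090 aligned bases. Trp53-ps is not among the genes counted, and no source used here says how reads of such similar transcripts were handled.

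Mdm2, both a target of p53 and the ligase that marks it for breakdown, had 45.3, 52.0, 57.9 and 49.6 CPM in KO replicates 1 to 4 and 52.0, 51.0, 51.5 and 49.0 CPM in WT replicates 1 to 4. The KO libraries were spread on both sides of the WT libraries, with a coefficient of variation of 10.3% in KO and 2.61% in WT. Mdm2 differed by 0.02 on the log2 scale (SE 0.06, interval -0.14 to 0.17, adjusted p = 0.958). The interval of Mdm2 ended below that of Cdkn1a, whose lower bound was 0.31; the difference between these genes was not tested.

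Mdm4, the partner that binds p53 without marking it for breakdown, had 37.2, 35.3, 40.3 and 38.0 CPM in KO replicates 1 to 4 and 39.6, 37.0, 41.0 and 39.4 CPM in WT replicates 1 to 4. The groups overlapped, and the fit gave -0.06 on the log2 scale (SE 0.06, interval -0.20 to 0.08, adjusted p = 0.753). The table also lists Mdm4-ps, a processed pseudogene on chromosome X whose transcript matches that of Mdm4 at 94.12% over 4184 aligned bases. Mdm4-ps averaged 48.2 ± 3.40 CPM in KO and 52.0 ± 1.95 CPM in WT libraries (SD, n = 4 each). No source used here says how reads were divided between these similar transcripts, so the Mdm4 level is uncertain. With the counts of both added, the fit gave -0.09 (SE 0.04, adjusted p = 0.432). The log2 ratio of Mdm2 over Mdm4 was 0.44 ± 0.13 in KO and 0.37 ± 0.07 in WT libraries (SD, n = 4 each; exact permutation p = 0.4).

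Ccng1, which encodes cyclin G1, a p53-induced protein that acts back on MDM2, had 87.7, 80.7, 92.0 and 83.9 CPM in KO replicates 1 to 4 and 96.9, 75.2, 79.5 and 84.8 CPM in WT replicates 1 to 4. All KO values lay inside the WT range. Ccng1 differed by 0.04 on the log2 scale (SE 0.07, interval -0.12 to 0.20, adjusted p = 0.871).

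**Figure D2:**
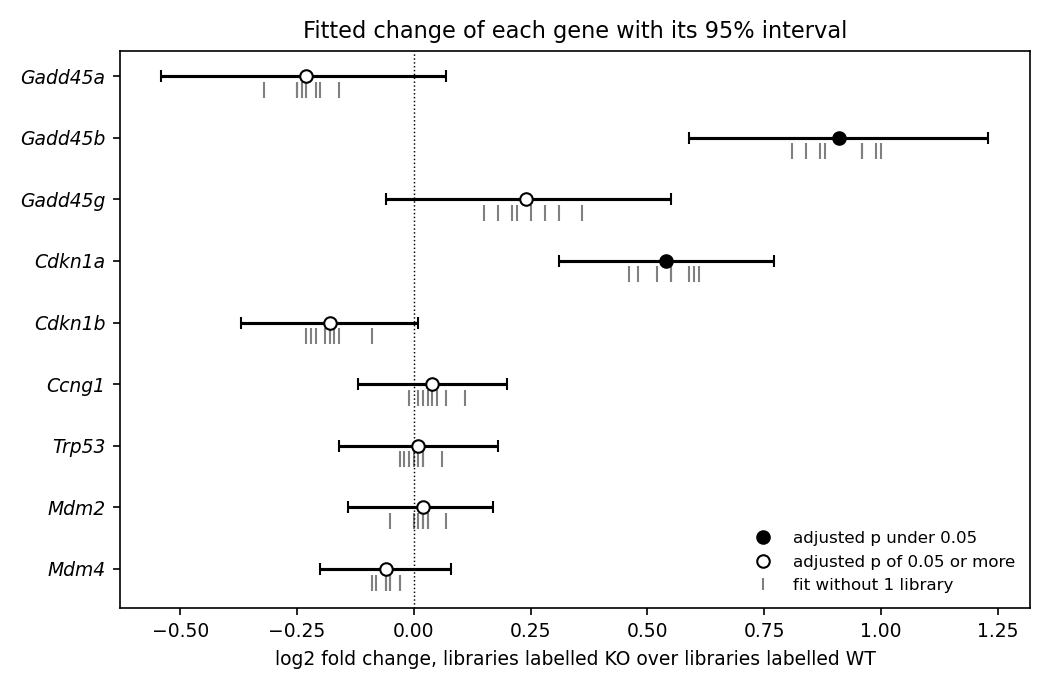
Fitted log2 fold change of each gene, libraries labelled KO over those labelled WT, with its 95% interval; filled points have an adjusted p under 0.05 and grey ticks are the fits without 1 library. Gadd45b (0.91) and Cdkn1a (0.54) stand to the right of 0 with every tick, and the intervals of the other 7 cross 0.

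The order of the members' levels was read per kilobase, as CPM divided by the length of the longest coding transcript. In libraries labelled KO it ran from Ccng1 at 24.5 ± 1.38 through Mdm2 (16.3), Cdkn1a (16.1), Cdkn1b (15.9), Gadd45g (14.2), Gadd45b (13.3) and Trp53 (11.8) to Mdm4 (5.31) and Gadd45a at 4.07 ± 0.249 CPM per kilobase. In libraries labelled WT it ran from Ccng1 at 23.9 ± 2.67 through Cdkn1b (18.1), Mdm2 (16.2), Gadd45g (12.1), Trp53 (11.6), Cdkn1a (11), Gadd45b (6.99) and Mdm4 (5.52) to Gadd45a at 4.82 ± 0.62 CPM per kilobase (SD, n = 4). Neighbours from Mdm2 down to Trp53 overlapped between libraries in KO, whereas Ccng1, Mdm4 and Gadd45a each stood apart from the next gene. In WT, only the steps from Mdm2 to Gadd45g and from Cdkn1a to Gadd45b were free of overlap. Cdkn1a and Gadd45b stood below Trp53 in WT means and above it in KO means.

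**Figure D3:**
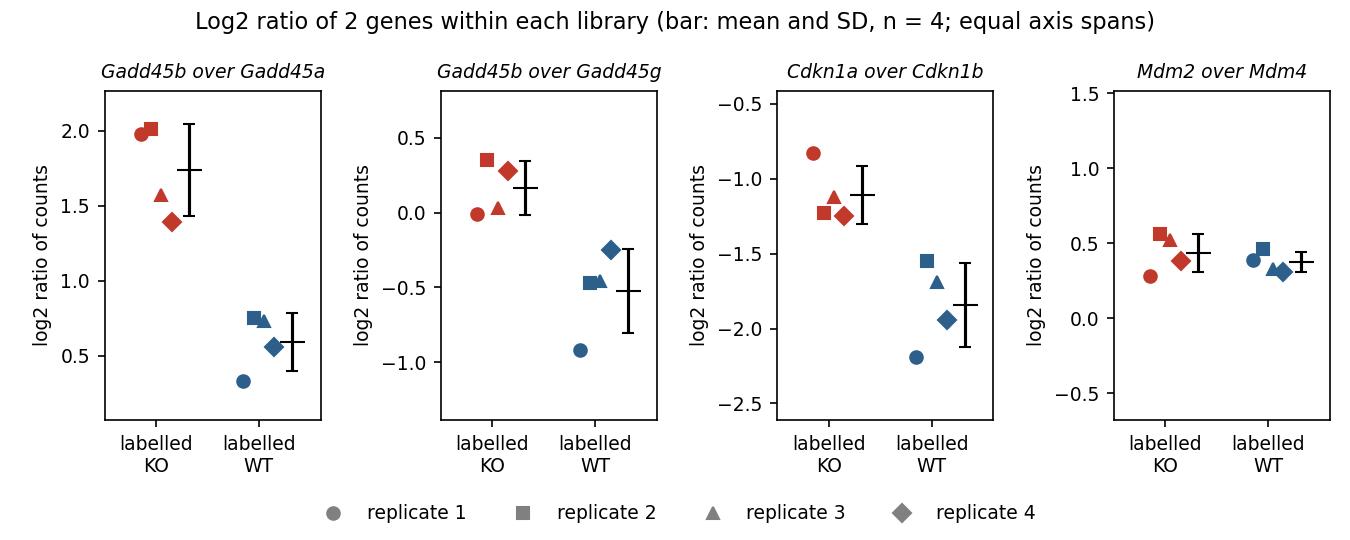
Log2 ratio of the counts of 2 genes within each library, with libraries labelled KO on the left of each panel and those labelled WT on the right, all axes spanning the same range; bars give the mean and SD of 4 libraries. The groups are apart for Gadd45b over Gadd45a, Gadd45b over Gadd45g and Cdkn1a over Cdkn1b, and overlap for Mdm2 over Mdm4.

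Other genes induced by p53 were counted from a list that leaves out the 9 members. Of 41 tested, 1 rose, 0 fell and 40 did not pass, which is 2.44% beside 1.43% of all tested genes, with 0.006 as the median on the log2 scale. The gene that rose was Trp53i11, named as a p53-induced gene, at 95.6 ± 3.69 CPM in KO and 81.0 ± 3.86 CPM in WT libraries (SD, n = 4 each; log2 fold change 0.24, SE 0.05, adjusted p = 0.0118); without KO replicate 4 it did not pass (0.0566), and without KO replicate 2 the damage-responsive kinase gene Plk2 passed as well (0.0335). Of 27 regulators of p53, such as the damage kinases and acetylases, 0 passed by edgeR and 3 had an unadjusted p under 0.05, as had 12.6% of all tested genes, at a median of -0.039. Those with the lowest p were the deacetylase Sirt1, at 21.8 ± 2.03 CPM in KO and 25.3 ± 0.961 CPM in WT libraries, and the damage kinase Atr, at 22.4 ± 1.03 CPM in KO and 25.2 ± 1.52 CPM in WT libraries (SD, n = 4 each; adjusted p = 0.2 and 0.284). Csnk1a1, a kinase that works with MDM4, and Ppp1r13l, an inhibitory p53-binding protein, followed at log2 fold changes of 0.09 (SE 0.04) and 0.29 (SE 0.14).

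Partners of GADD45 proteins in kinase signalling, repair and demethylation numbered 26 tested rows of 25 symbols, since Map3k4 stands under a pair of identifiers. Of these rows 0 passed by edgeR and 5 had an unadjusted p under 0.05, against 12.6% of all tested genes; their median log2 difference was 0.001. The 4 with the lowest p were the cytosine dioxygenases Tet1 (log2 fold change -0.22, SE 0.07), Tet2 (-0.14, SE 0.06) and Tet3 (0.12, SE 0.05) and the p38 kinase gene Mapk11 (0.16, SE 0.06), at adjusted p from 0.158 to 0.324. Tet1 stood at 18.7 ± 1.19 CPM in KO and 21.7 ± 0.772 CPM in WT libraries (SD, n = 4 each), with no overlap.

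The cell cycle genes on which p21 and p27 act did not pass. Of all tested genes 1.43% passed, so 0 in lists this small is near that share, and 12.6% had an unadjusted p under 0.05. Of 24 cyclins, kinases, RB and E2F genes, 0 passed by edgeR and 1 had an unadjusted p under 0.05, with a median log2 difference of -0.023; the lowest p was that of the phosphatase Cdc25b, at 21.8 ± 2.64 CPM in KO and 24.9 ± 2.51 CPM in WT libraries (SD, n = 4 each; adjusted p = 0.373). On the log2 scale Rb1 differed by -0.14 (SE 0.07), E2f4 by 0.10 (SE 0.07) and E2f1 by 0.15 (SE 0.11). Of 23 proliferation genes, 0 passed and 1 had an unadjusted p under 0.05, and their summed level was 114.8 to 124.2 CPM in KO and 117.1 to 123.0 CPM in WT libraries. The lowest p there was that of the spindle checkpoint gene Bub1b, at 4.74 ± 1.12 CPM in KO and 6.74 ± 1.65 CPM in WT libraries (SD, n = 4 each; adjusted p = 0.28), followed by Aurka at 0.47 (SE 0.24), Mcm5 at 0.20 (SE 0.12) and Cdc20 at 0.43 (SE 0.26) on the log2 scale. Aurka averaged only 1.9 ± 0.337 CPM in KO and 1.37 ± 0.449 CPM in WT libraries (SD, n = 4 each). Cdc20 averaged 1.34 ± 0.129 CPM in KO and 0.955 ± 0.362 CPM in WT libraries (SD, n = 4 each). Of 16 other kinase inhibitors and genes that control p27, 0 passed and 0 had an unadjusted p under 0.05. Foxo6, Foxo4, Uhmk1 and Cks1b had the lowest p, from 0.0627 to 0.156 unadjusted.

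**Figure D4:**
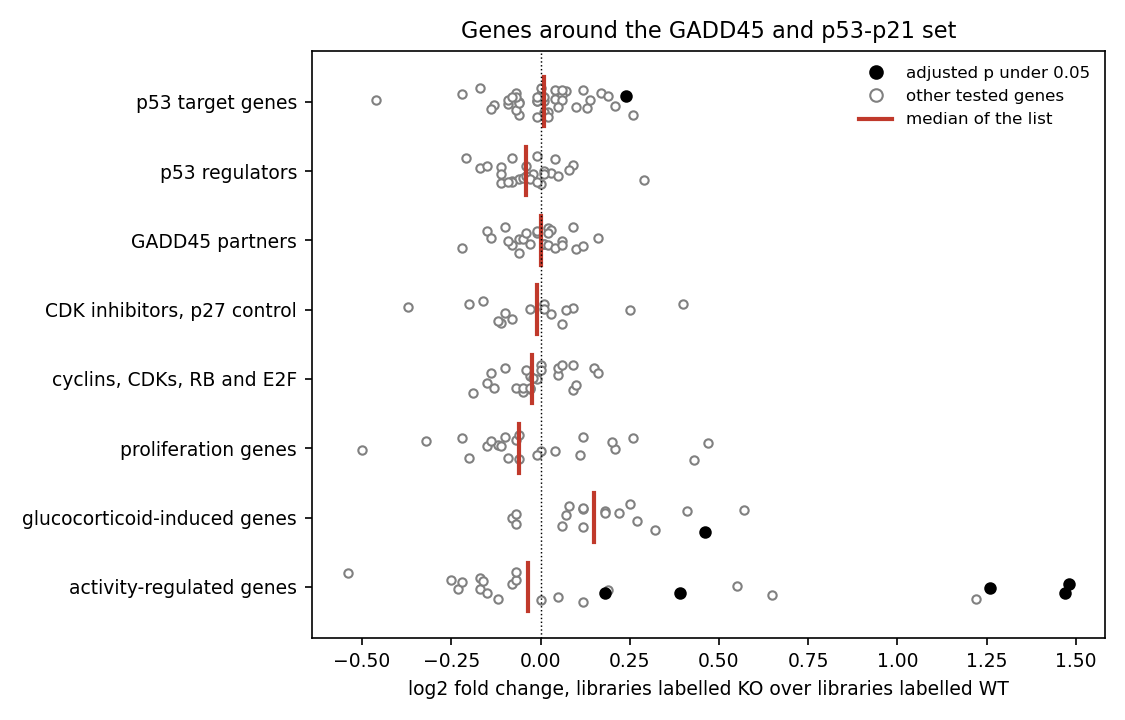
Log2 fold change of each tested gene in 8 lists, libraries labelled KO over those labelled WT; filled points have an adjusted p under 0.05, open points do not, and the bar is the list's median. Medians lie between -0.056 and 0.006 in the 6 p53, GADD45 and cell cycle lists, and stand at 0.147 for glucocorticoid-induced genes and -0.033 for activity-regulated genes.

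Gadd45b is also a gene of neuronal activity and Cdkn1a also responds to glucocorticoids, so these lists were read beside them. Of 24 activity-regulated genes, Egr3, Vgf, Inhba, Nptx2 and Rheb rose, 0 fell and 19 did not pass, at a median of -0.033; the 20.8% called stand beside 1.43% of all tested genes. Of the 24, 12 had a positive and 12 a negative log2 fold change. The summed level was 1464 to 1717 CPM in KO and 1073 to 1492 CPM in WT libraries, which overlap. Leaving out 1 library at a time, Nptx2 failed to pass in 6 of 8 fits (adjusted p up to 0.128) and Rheb in 7 of 8 (up to 0.159). Of 18 glucocorticoid-induced genes, Fkbp5 rose, 0 fell and 17 did not pass, at a median of 0.147; the 5.56% called stand beside the same 1.43%. With DESeq2 3 of them rose (Fkbp5, the transcription factor gene Klf9 and the metallothionein gene Mt2), and 4 did without WT replicate 1. Their sum did not overlap, at 1009 to 1124 CPM in KO and 916.1 to 982.2 CPM in WT libraries. The part of either list in the Gadd45b and Cdkn1a results was not tested, and some of the genes in these lists were known to have risen when the lists were written.

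Cell type markers were summed in the same way. Neuronal markers (14 tested, all 14 with a positive log2 fold change, median 0.069, 0 passed) summed to 8990 to 9634 CPM in KO and 8648 to 9219 CPM in WT libraries. Endothelial and mural markers (15 tested, 14 with a negative log2 fold change, median -0.132) summed to 443.9 to 466.4 CPM in KO and 482.1 to 528.3 CPM in WT libraries, with no overlap; Slco1c1 fell, and passed in only 2 of the 8 fits without 1 library. Markers of astrocytes (4799 to 5146 CPM in KO, 5065 to 5220 in WT), oligodendrocytes (6949 to 7857 in KO, 7398 to 7785 in WT), their precursors (152.9 to 156.8 in KO, 152.5 to 165.6 in WT), microglia (537.6 to 574.0 in KO, 541.3 to 606.6 in WT), blood (50.22 to 81.06 in KO, 49.7 to 74.08 in WT) and choroid plexus (891.7 to 1056 in KO, 899.9 to 1261 in WT) overlapped between the groups, with 0 of 10, 12, 5, 12, 5 and 8 tested genes past the threshold. A negative log2 fold change was seen in 7 of 10 astrocyte (median -0.051), 10 of 12 oligodendrocyte (-0.055) and 3 of 5 precursor markers (-0.053). It was seen in 7 of 12 microglia (-0.013), 1 of 5 blood (0.094) and 6 of 8 choroid plexus markers (-0.081). Only KO replicate 1 had an astrocyte sum above the lowest in WT. Passing genes were 6.67% of the endothelial and mural list, beside 1.43% of all tested genes. In lists this small 0 is near the latter share. No marker was at 0 in all libraries. The part of the vascular or neuronal difference in the Gadd45b and Cdkn1a results was not tested.

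The genes whose profile over the 8 libraries lay nearest to that of Gadd45b, by the root mean square difference of centred log2 CPM, were Rtn4rl2, a Nogo receptor relative (0.139), Grasp, a scaffold of metabotropic glutamate receptors (0.151), Metrnl, a secreted protein (0.177), Wnt10a, a WNT ligand (0.192), and Agmat, an agmatinase (0.195). The median over the 12980 genes compared was 0.515. The log2 fold changes of these 5 nearest genes were 0.61 to 0.99. Since the profile holds the difference between the groups, the choice fixed this direction, and no test is given. Nearest to Cdkn1a were Efcab6 (0.107), Ptgs1, a cyclooxygenase (0.111), Dmp1, a matrix phosphoprotein (0.113), Plekha2 (0.119) and Dhx58, an RNA sensor of antiviral defence (0.123), where the median was 0.330. Their log2 fold changes were 0.37 to 0.69, a direction fixed by the choice in the same way. Plekha2 and Dhx58 did not pass (edgeR adjusted p = 0.268 and 0.289). None of the 5 nearest genes was shared by both.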

How the data were processed

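Per the labels' protocols, brain RNA was extracted with Trizol, cleaned on columns and made into stranded poly(A) libraries. The authors deposited estimated counts per gene, not scaled and made in a way no label states, of which 91.5% were whole within 0.001. TopHat2 2.0.9, edgeR and GRCm38 are listed, without roles, in the submitters' processing notes, and no counting program is given in the sources used here.

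Counts were rounded, filtered with filterByExpr, scaled by TMM and fitted on group alone with the robust quasi-likelihood test of edgeR 4.0.16 (R 4.3.3), adjusted over 15902 genes; the fit was tested on simulated data. Each edgeR SE is the size of the log2 fold change divided by the square root of its F statistic, which rests on a variance moderated over genes. Intervals use this SE with 6 residual degrees of freedom, whereas the edgeR p-values use degrees of freedom moderated over genes. The interval of Cdkn1b therefore crosses 0 although its unadjusted edgeR p is 0.0347. Alternatives included DESeq2 1.42.0, limma 3.58.1 (voom) and leaving out each library. Within-library ratios added 2 counts to each gene. No pair of replicates looked like 1 library deposited again (chi-square per degree of freedom 2.44 to 5.02).

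Members, lists and ratios were chosen with earlier results of these data known. The genes named are the members, list genes past the threshold or up to 4 with the lowest p of a list without one, and the 5 nearest profiles with a mean of at least 1 CPM. Positions, lengths and overlaps come from GENCODE M21 on GRCm38, where 17286 identifiers matched. Similar transcripts were searched with BLAST 2.17.0 (identity of at least 90%, at least 100 aligned bases). Promoters are RefSeq's. Genes that a list names without a row in the table were not analysed here.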

Additional observations from a re-analysis of the deposited data

Results flagged for a closer look

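Uhrf2 in WT replicate 2 stood at 47.7 CPM, against 57.2 to 58.9 CPM in the other libraries labelled WT, a gap wide for a group of 4 by Dixon's criterion at 95%. It was the 1 value found among 56 groups of 4, of the 9 members, 3 other genes and 16 list sums; by chance about 1 in 20 groups would be found. None of the 9 members had such a library in either group.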

How the results depend on the processing

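Gadd45b and Cdkn1a, and no other member, passed in each of the 18 alternatives, with log2 fold changes of 0.81 to 1 and 0.44 to 0.61. These covered other scalings and filters, DESeq2, limma-voom, a GC content and length correction, each library left out, and a fit without both libraries numbered 1, chosen after seeing the data. The count of changed genes over the whole table, 228, ran from 110 to 324 in the fits without 1 library, the lowest without WT replicate 3 and then 130 without KO replicate 3 and 146 without KO replicate 4. With the replicate number as a block it was 495, and 550 with GC content and length trends removed as well. Deviations from the group means correlated at 0.208 between the libraries numbered 1 and at 0.024 to 0.077 in the other pairs of the same number; not every library correlated best with its own number, and the labels name nothing shared, so the numbers were not treated as pairing, though the data do not settle it.

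List counts moved too. Glucocorticoid-induced genes that rose numbered 1 to 4 without 1 library, 2 with GC content and length trends removed, 3 without both libraries numbered 1 and 4 with the block. Activity-regulated genes that rose numbered 3 to 6 without 1 library, and p53 targets 0 to 2, with 2 under the block. Under the block 4 activity-regulated genes rose and 1 fell, Npas4, and Nptx2 did not pass (edgeR adjusted p = 0.0894). Among markers, 1 neuronal gene rose with DESeq2, and 2 did without WT replicate 4, with the block, or with GC content and length trends removed. With the block and these trends removed, 3 neuronal genes rose. In astrocytes 1 gene fell with DESeq2, without KO replicate 1 or without KO replicate 2, and 3 fell with the block. The block also gave 1 microglia gene that fell, and 2 endothelial and mural genes that fell, as with these trends removed as well. With the block 1 proliferation gene fell, Bub1b. With GC content and length trends removed as well, 1 p53 regulator rose, Csnk1a1 (edgeR adjusted p = 0.0434). In the fits without the block no gene of the proliferation, p53 regulator, GADD45 partner or cell cycle lists passed.

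Among members near 0 the sign turned. For Trp53 it was -0.008 with GC content and length trends removed, -0.007 with the block as well, -0.024 without both libraries numbered 1, and -0.027, -0.018 and -0.006 without WT replicate 1, WT replicate 2 or KO replicate 4 (-0.027 to 0.062 without 1 library). For Mdm2 it was -0.003 without WT replicate 4 and -0.049 without KO replicate 3 (-0.049 to 0.068), and for Ccng1 -0.009 without WT replicate 2. The ratio differences kept their direction, at 1.05 to 1.26 (Gadd45b over Gadd45a), 0.56 to 0.78 (Gadd45b over Gadd45g), 0.61 to 0.83 (Cdkn1a over Cdkn1b) and 0.02 to 0.11 (Mdm2 over Mdm4) without 1 library. The cause of these movements was not tested. Counting error limits Gadd45a most, at 61 to 104 counts per library.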
